A study of Mus musculus with 6 samples.

Results

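The genes described here are reported targets of microRNAs other than let-7: Reck, Traf6, Foxo1, Tet2, Dnmt3b, Abca1, Ptbp2, Hipk3 and Mbnl1. They were taken as probe sets whose platform annotation gives exactly 1 gene symbol equal to the name, with the highest mean level deciding where a gene had several. Of the 9 genes, 8 had such a probe set, and each had only 1, out of 7486 genes with a probe set of their own. Hipk3 shared its probe set with a microRNA gene and has no value here. The samples were Melan-a cells, immortalised pigmented melanocytes of C57BL/6 mouse origin, grown in medium with serum and the phorbol ester TPA. They received a short interfering RNA directed at Dicer (siDicer) or a control (siScr) and were lysed 24 hours later. Each group held 3 arrays, at passages 47, 54 and 56 for replicates 1, 2 and 3 of both groups, so that same-numbered arrays form a pair. All 6 samples came from this 1 female line and all were transfected, and an untransfected group was not analysed here.

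A microRNA is a short RNA that guides an Argonaute protein to partly complementary sites, mostly in the 3′ untranslated region of a messenger RNA, which is then translated less and often degraded. Pairing rests mainly on the seed near the microRNA's 5′ end. Dicer makes the mature microRNA from its hairpin precursor, so loss of Dicer lowers microRNAs as existing molecules decay, and messenger RNAs they repress can accumulate. The targets below were reported in other cell types, and neither mature microRNAs nor target sites were analysed here.

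The microRNAs commonly named for these genes fall into separate seed groups, and they are printed to show which genes share one. The sequences are RefSeq's for mouse build GRCm38.p6, 5′ to 3′, with the seed (bases 2 to 8) in capitals. Reck is a reported target of miR-21, whose mature form lies on the minus strand of chr11:86584120-86584141.
mmu-miR-21a-5p: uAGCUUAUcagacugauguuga
Traf6 is a target of miR-146a, on the minus strand of chr11:43374435-43374456.
mmu-miR-146a-5p: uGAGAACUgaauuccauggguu
Foxo1 was reported as a target of miR-182 and miR-96, encoded close together on chromosome 6, and of miR-27a. The seeds of the first pair agree in 6 of 7 bases.
mmu-miR-182-5p: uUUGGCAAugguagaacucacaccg
mmu-miR-96-5p: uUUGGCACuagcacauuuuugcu
mmu-miR-27a-3p: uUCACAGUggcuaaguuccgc
Tet2 was reported for miR-22, and both Tet2 and Dnmt3b for the miR-29 family, whose 3 members share all 7 seed bases.
mmu-miR-22-3p: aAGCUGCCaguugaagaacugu
mmu-miR-29a-3p: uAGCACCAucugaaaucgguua
mmu-miR-29b-3p: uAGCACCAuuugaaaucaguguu
mmu-miR-29c-3p: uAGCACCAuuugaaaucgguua
Abca1 is the best known target of miR-33, which is encoded within a sterol regulator gene.
mmu-miR-33-5p: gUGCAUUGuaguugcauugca
Mbnl1 was reported for the miR-30 family.
mmu-miR-30a-5p: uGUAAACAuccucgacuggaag
mmu-miR-30e-5p: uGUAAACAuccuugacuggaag
Ptbp2 was reported for the muscle microRNA miR-133, whose sequence is not shown.

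Values are log2 signals per probe set, and 1 log2 unit is a doubling. Array medians lay between 4.58 and 4.64, and all 6 arrays correlated with each other at r of at least 0.994. All 8 genes lay above 4.14, the 95th percentile of 407 olfactory and vomeronasal receptor genes, used as a gauge of background. The melanocyte genes Tyrp1, Pax3 and Mlph were at 12.86, 10.57 and 10.21 in siDicer cells and at 12.83, 10.57 and 10.33 in siScr cells, and none of these passed. Of the 4 melanocyte markers measured 1 rose, Mreg, a regulator of melanosome transfer, by 0.62 (limma with the block, adjusted p = 0.0435). Of all probe sets 0.757% were called higher and 0.238% lower. Mreg did not pass in limma without the block (0.0877), nor without replicate 2 (0.149) or replicate 3 (0.152). It also did not pass in limma with the block after quantile (0.0682) or cyclic loess normalization (0.0511). In the fits without replicate 2 or replicate 3 no probe set passed. Of 11 immune cell markers 8 lay above the background gauge, but the pan-leukocyte gene Ptprc, at 2.84 against 2.85 (no difference past the threshold), was below it. The mean level of the immune list ran from 4.39 to 4.43 on siDicer arrays and from 4.49 to 4.52 on siScr arrays, ranges that did not overlap. Fibroblast markers ran from 6.00 to 6.17 and from 5.92 to 6.14, keratinocyte markers from 4.90 to 4.94 and from 4.97 to 5.06, and endothelial markers from 4.54 to 4.63 and from 4.58 to 4.69. The ranges of the keratinocyte list did not overlap either, while those of the fibroblast and endothelial lists did. The median difference in limma with the block was -0.0139 over all probe sets and -0.0006 over those above the median level. No marker of these 4 other cell types passed in limma with the block. At an unadjusted p under 0.05 were 4 of 11 immune, 3 of 7 fibroblast, 1 of 6 keratinocyte and 0 of 5 endothelial genes. The share of all probe sets was 15.7%. The smallest p was that of Fcer1g in the immune list, at a difference of -0.25, of Postn in the fibroblast list (0.25), of Lce1a1 in the keratinocyte list (-0.16) and of Selp in the endothelial list (-0.09), with adjusted p from 0.125 to 0.533. Lce1a1 and Selp lay below the background gauge. The part of these lists in the results below was not tested. Dicer1 was not analysed here, so the knockdown rests on the labels. In bulk cultures, fewer cells of a type and less RNA per cell cannot be told apart.

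Among the 8 genes, 1 rose in siDicer cells, Reck, and none fell, in limma with replicate number as a block and an adjusted p under 0.05 over all 16383 probe sets. Traf6 had nearly as large a difference and fell just short. Of all probe sets 0.995% passed, 0.757% higher and 0.238% lower. Without the block 0 of the 8 passed in limma, where 0.214% of all probe sets did. At an unadjusted p under 0.05, 3 of the 8 genes (Reck, Traf6 and Tet2) were counted with the block and 2 of them (Reck and Traf6) without it, against 15.7% and 10.2% of all probe sets. The median difference of the 8 genes was -0.01 log2 units, the same as the -0.01 of all probe sets. Of the 8 genes, 4 had a positive and 4 a negative difference. The median size of the difference, whatever its sign, was 0.10 among the 8 and 0.07 among all probe sets.

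**Figure D1:**
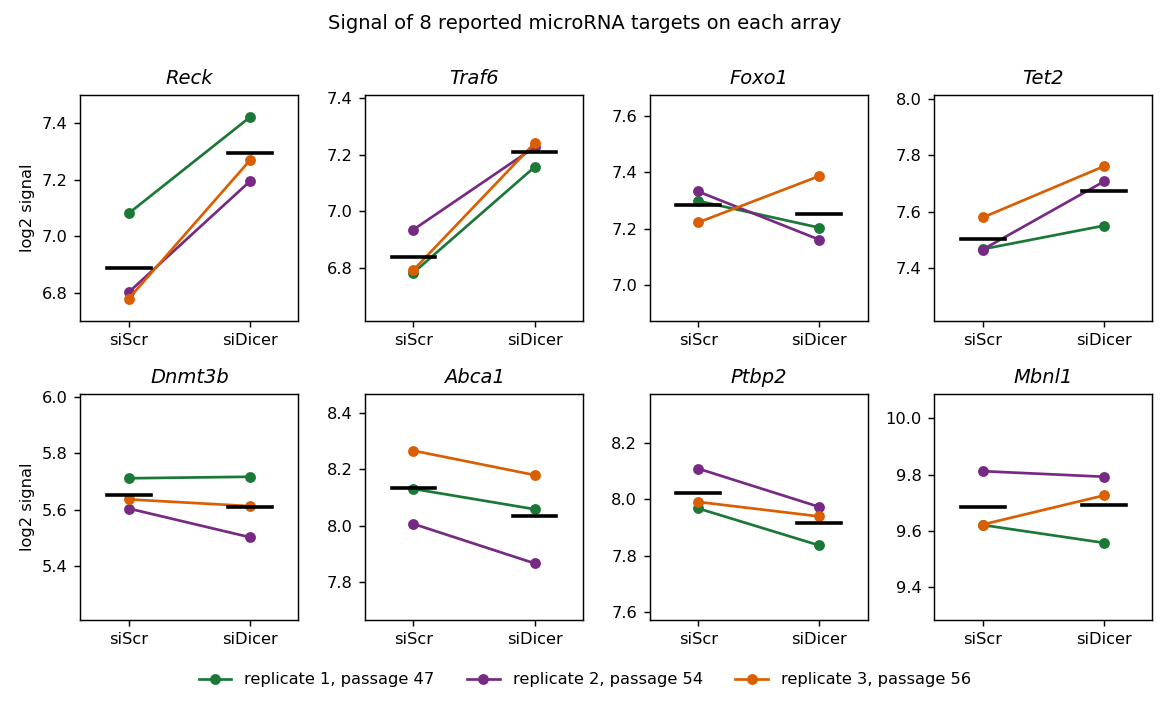
Log2 signal of the 8 genes on each of the 6 arrays, siScr at the left and siDicer at the right of each panel, with lines joining arrays of the same passage and black bars at group means; every panel spans 0.8 log2 units. The 3 lines of Reck, Traf6 and Tet2 go up, those of Abca1 and Ptbp2 go down, and those of Foxo1, Dnmt3b and Mbnl1 differ in direction.

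Reck is a membrane-anchored glycoprotein that inhibits matrix metalloproteinases and also takes part in Wnt7 signalling. Its signal was 7.42, 7.19 and 7.27 in siDicer replicates 1, 2 and 3 and 7.08, 6.80 and 6.78 in the siScr replicates of the same numbers. Every siDicer array lay above every siScr array, the lowest of the former exceeding the highest of the latter narrowly. The pairs differed by 0.34, 0.39 and 0.49, while passage 47 was the highest of its group in both treatments. Reck was thus 1.33-fold higher in siDicer cells, at 7.30 ± 0.12 against 6.89 ± 0.17 (SD, n = 3 each), with a log2 difference of 0.41 and a standard error of 0.06 (limma with the block, adjusted p = 0.0449). The 95% confidence interval of the difference was 0.27 to 0.55. Without the block the passage spread enters the error, which became 0.10, and the adjusted p was 0.202. The call also ended when any 1 pair was left out, with adjusted p of 0.0531 without replicate 1, 0.203 without replicate 2 and 0.197 without replicate 3, although the difference stayed between 0.37 and 0.44. It ended as well after quantile (adjusted p = 0.068) or cyclic loess normalization (adjusted p = 0.0561), both in limma with the block. In the fits without replicate 2 or replicate 3 no probe set passed.

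Traf6 is the ubiquitin ligase through which Toll-like and interleukin-1 receptors reach NF-kappaB and MAP kinases. Its signal was 7.16, 7.23 and 7.24 in siDicer replicates 1 to 3 and 6.78, 6.93 and 6.79 in siScr. All siDicer arrays lay above all siScr arrays, and the arrays of each group were close together. The pair differences were 0.37, 0.29 and 0.45. Traf6 was at 7.21 ± 0.05 against 6.84 ± 0.09 (SD, n = 3 each), a ratio of 1.29, with a log2 difference of 0.37, a 95% confidence interval of 0.23 to 0.51 and a standard error of 0.06. It did not pass with the block (limma, adjusted p = 0.0539) or without it (adjusted p = 0.0915). It did pass where only probe sets with 1 gene symbol (limma, adjusted p = 0.0168), above the median level (0.0225) or above the receptor level (0.0319) were tested, and with a mean-variance trend (0.0302). With identical rows kept once it did not (0.0533). Reck and Traf6 were the only ones of the 8 genes whose groups did not overlap, where 15.9% of all probe sets had groups that did not.

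**Figure D2:**
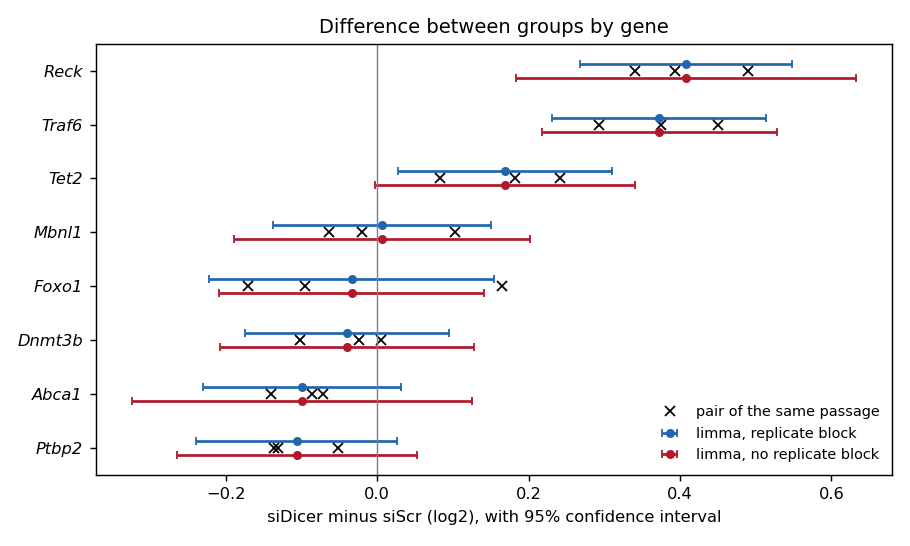
Difference between siDicer and siScr on the log2 scale for each of the 8 genes, with limma's 95% confidence interval with the replicate block (blue) and without it (red); crosses are the 3 pairs of the same passage. Reck at 0.41 and Traf6 at 0.37 stand above the other 6 genes, and the red interval of Reck is wider than the blue one.

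The DNA methylation genes, Tet2 and Dnmt3b, both reported for miR-29, did not pass. Tet2 is a dioxygenase that oxidises 5-methylcytosine, a step toward demethylation. Its signal was 7.55, 7.71 and 7.76 in siDicer replicates 1 to 3 and 7.47, 7.47 and 7.58 in siScr. The groups overlapped, since siDicer replicate 1 was below siScr replicate 3, but siDicer was higher in all 3 pairs, by 0.08, 0.24 and 0.18. The difference was 0.17, with a 95% confidence interval of 0.03 to 0.31 and an adjusted p of 0.253 in limma with the block (unadjusted p = 0.0267). Of all probe sets 17.9% were higher in siDicer in all 3 pairs, as were Reck, Traf6 and Tet2 among the 8.

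Dnmt3b is a de novo DNA methyltransferase, and it had the lowest signal of the 8 relative to all probe sets, 68.3% of which lay below it. It measured 5.72, 5.50 and 5.61 in siDicer replicates 1 to 3 and 5.71, 5.60 and 5.64 in siScr. The groups overlapped fully. Its difference was -0.04, with a 95% confidence interval of -0.17 to 0.09 (limma with the block, adjusted p = 0.757). Other DNA methylation genes were few in these data: of 23 listed, 3 were measured and 0 passed in limma. At an unadjusted p under 0.05 there was 1 of the 3, against 15.7% of all probe sets. Trdmt1, a methyltransferase of transfer RNA despite its DNA methyltransferase homology, had the smallest p, at 6.35 ± 0.03 against 6.06 ± 0.11 (SD, n = 3 each; limma, adjusted p = 0.125).

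Foxo1 is a forkhead transcription factor that insulin and Akt signalling keep out of the nucleus. Its signal was 7.20, 7.16 and 7.39 in siDicer replicates 1 to 3 and 7.30, 7.33 and 7.22 in siScr. Pairs 1 and 2 were lower in siDicer, by 0.10 and 0.17 in size, and pair 3 was 0.16 higher. The mean difference of -0.03 had a 95% confidence interval of -0.22 to 0.15 (limma with the block, adjusted p = 0.862), the widest of the 8 genes in that fit. Of 13 measured Foxo and insulin signalling genes 0 passed in limma, with a median of -0.07. At an unadjusted p under 0.05 there were 3 of the 13, against 15.7% of all probe sets. Igfbp5, an insulin-like growth factor binding protein, had the smallest p, with a difference of 0.20 (limma, adjusted p = 0.186).

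Abca1 is the membrane transporter that loads cholesterol onto apolipoprotein A-I. Its signal was 8.06, 7.87 and 8.18 in siDicer replicates 1 to 3 and 8.13, 8.01 and 8.27 in siScr. The order of the passages was the same in both groups, with passage 56 highest and passage 54 lowest, and passage means spanned 0.29, more than any pair difference. Within pairs siDicer was lower each time, by 0.07, 0.14 and 0.09 in size. The difference of -0.10, with a 95% confidence interval of -0.23 to 0.03, did not pass (limma with the block, adjusted p = 0.428).

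Of 12 measured genes of cholesterol efflux and uptake 1 fell and 0 rose, against 0.238% of all probe sets lower and 0.757% higher. At an unadjusted p under 0.05 in limma there were 6 of the 12 with the block and 4 without it. The shares of all probe sets were 15.7% and 10.2%. The list went in both directions, with 6 of the 12 differences above 0, a median of 0.02 and a range from -0.43 to 0.31. The gene that fell was Rxrg, a retinoid X receptor, which is the class of partner that liver X receptors need at the Abca1 gene. It was at 6.19 ± 0.14 against 6.62 ± 0.17 (SD, n = 3 each), a difference of -0.43 with a standard error of 0.06 (limma with the block, adjusted p = 0.0381). Without the block it did not pass (adjusted p = 0.209), nor without replicate 2 (0.194) or replicate 3 (0.167). In the fits without replicate 2 or replicate 3 no probe set passed. The liver X receptor Nr1h3 had a difference of -0.06 (adjusted p = 0.607) and the other retinoid X receptor measured, Rxra, one of 0.09 (adjusted p = 0.505), neither past the threshold in limma.

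The splicing regulators Ptbp2 and Mbnl1 did not pass. Ptbp2, the neuronal polypyrimidine tract binding protein, represses exons. Its signal was 7.84, 7.97 and 7.94 in siDicer replicates 1 to 3 and 7.97, 8.11 and 7.99 in siScr. It was lower in siDicer in all 3 pairs, by 0.13, 0.14 and 0.05 in size, although the groups overlapped because siDicer replicate 2 was slightly above siScr replicate 1. The difference was -0.11, with a 95% confidence interval of -0.24 to 0.03 (limma with the block, adjusted p = 0.407). Of all probe sets 22.6% were lower in siDicer in all 3 pairs, as were Abca1 and Ptbp2 here.

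Mbnl1 is a muscleblind protein that regulates alternative splicing and is sequestered in myotonic dystrophy. Its probe set had the highest signal of the 8 relative to all probe sets, 96.9% of which lay below it. The signal was 9.56, 9.79 and 9.73 in siDicer replicates 1 to 3 and 9.62, 9.81 and 9.62 in siScr. Passage 54 was highest in both groups, and the pairs differed by -0.06, -0.02 and 0.10. The difference was 0.01, with a 95% confidence interval of -0.14 to 0.15 (limma with the block, adjusted p = 0.971). This interval leaves room for a change of up to 1.11-fold. The sign of this small difference turned to -0.02 after quantile normalization and to -0.03 after cyclic loess. Of 16 other splicing regulators measured 0 passed in limma, with a median of 0.00. At an unadjusted p under 0.05 there were 2 of the 16, against 15.7% of all probe sets. Celf1, which acts on many of the exons that Mbnl1 regulates, had the smallest p, with a difference of 0.17 (limma, adjusted p = 0.224), and Ptbp3, a paralog of Ptbp2, had a difference of 0.02 (limma, adjusted p = 0.869).

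No measured gene of the lists drawn up around Reck and Traf6 passed in limma with the block over all probe sets. Of 11 measured metalloproteinases, related proteases and inhibitors 0 passed in limma (2 at an unadjusted p under 0.05), with a median of 0.00. The smallest p among them was that of Adam23, a disintegrin without protease activity, at 8.18 ± 0.37 against 7.93 ± 0.35 (SD, n = 3 each; limma, adjusted p = 0.107). Mmp9, a gelatinase that Reck inhibits, had a difference of -0.11 at a level near 5 (limma, adjusted p = 0.454). Of 20 measured receptors, ligands and adaptors around Traf6 0 passed in limma (8 at an unadjusted p under 0.05), with a median of 0.02. Of all probe sets 0.995% passed and 15.7% were at an unadjusted p under 0.05. Tlr4, the receptor for lipopolysaccharide, had the smallest p, at 8.61 ± 0.14 against 8.26 ± 0.10 (SD, n = 3 each), a difference of 0.35 with no overlap between the groups (limma, adjusted p = 0.0695). Of all probe sets 15.9% had groups that did not overlap. Like Traf6, Tlr4 passed in limma among probe sets with 1 symbol (0.0245), above the median level (0.0312) or above the receptor level (0.0426). It also passed with the variance trend (0.0338), but not without the block (0.219). Map3k7, the kinase that Traf6 activates, had a difference of 0.16 (limma, adjusted p = 0.262). The 4 measured kinases of the HIPK, DYRK and CLK families had differences from -0.01 to 0.07, and 0 passed in limma (0 at an unadjusted p under 0.05). Among them Hipk1, a paralog of Hipk3, had a difference of -0.01 (adjusted p = 0.971), and Clk1, which had the smallest p, one of 0.07 (adjusted p = 0.577).

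**Figure D3:**
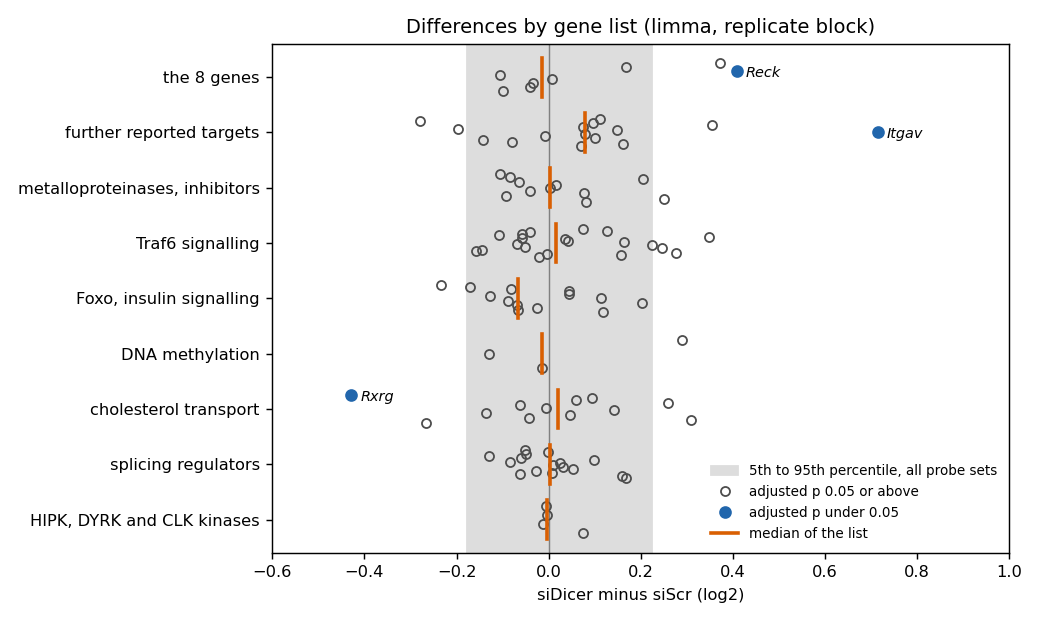
Difference between siDicer and siScr on the log2 scale for each gene of the 8 and of related lists (points, spread vertically for legibility), with the median of each list as an orange line and the 5th to 95th percentile of all 16383 probe sets, -0.18 to 0.23, in grey. Filled points passed in limma with the block: Reck, Itgav and Rxrg.

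Of 15 further reported microRNA targets 1 rose, Itgav, and none fell, with a median of 0.08 against -0.01 for all probe sets. Of all probe sets 0.757% were called higher and 0.238% lower. At an unadjusted p under 0.05 in limma there were 5 of the 15, against 15.7% of all probe sets. Itgav, the integrin alpha V subunit, was higher in all 3 pairs (difference 0.71, limma with the block, adjusted p = 0.0232). In limma Itgav also passed without the block (adjusted p = 0.0265) and without replicate 1 (0.0302). Without replicate 2 it did not pass (0.149), nor without replicate 3 (0.113), and in those fits no probe set passed. In this list 10 of 15 genes were higher in siDicer in all 3 pairs and 4 were lower in all 3, against 17.9% and 22.6% of all probe sets. Notch2, a Notch receptor, had a difference of 0.35 (limma, adjusted p = 0.0603), and Rab22a, an endosomal GTPase, one of -0.28 with lower values in all 3 pairs (limma, adjusted p = 0.09). The 8 genes and this list have no member in common. The list was assembled with earlier results on some of its genes known, so its direction is not independent evidence.

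Probe sets for listed microRNA genes numbered 7, and 0 passed in limma (1 at an unadjusted p under 0.05, against 15.7% of all probe sets). They included Mir124a-2 and Mir124a-3, whose microRNA is not among those named above. All 7 had a difference above 0, as had 7270 of all 16383 probe sets. Only 1 of the 7 was higher in siDicer in all 3 pairs, against 17.9% of all probe sets. Probe sets of microRNA genes can capture precursor or host RNA, and only 4 of the 7 were above the background gauge. Mir30a had the smallest p, at 5.45 ± 0.11 against 5.24 ± 0.09 (SD, n = 3 each; limma, adjusted p = 0.283), and Mir30e, of the same seed group, had a difference of 0.13 (limma, adjusted p = 0.577). The pairs of Mir30e differed by -0.07, 0.01 and 0.45.

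Over the 6 arrays, the profile of Reck was most like that of Dst, a cytolinker of the plakin family, and of Golga2, a Golgi matrix protein, with a Pearson r of 0.979 for the latter. Traf6 was most like Taf3, a subunit of the general transcription factor TFIID (r = 0.998), and Tiprl, a regulator of PP2A-type phosphatases (r = 0.997). These were the highest values among 3555 named genes above the background gauge. With only 6 arrays and the highest of 3555 genes taken each time, high values are found for all 8 genes. The lowest were those of Foxo1, at 0.946 with Gtf3c4, a subunit of TFIIIC, and 0.917 with Pla2g2a. Of the closest pair of genes for each of the 8, Tiprl alone passed in limma with the block, with a difference of 0.66 (adjusted p = 0.0246). Tiprl was picked for its likeness to Traf6 over these same 6 arrays, so its difference is not separate evidence.

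**Figure D4:**
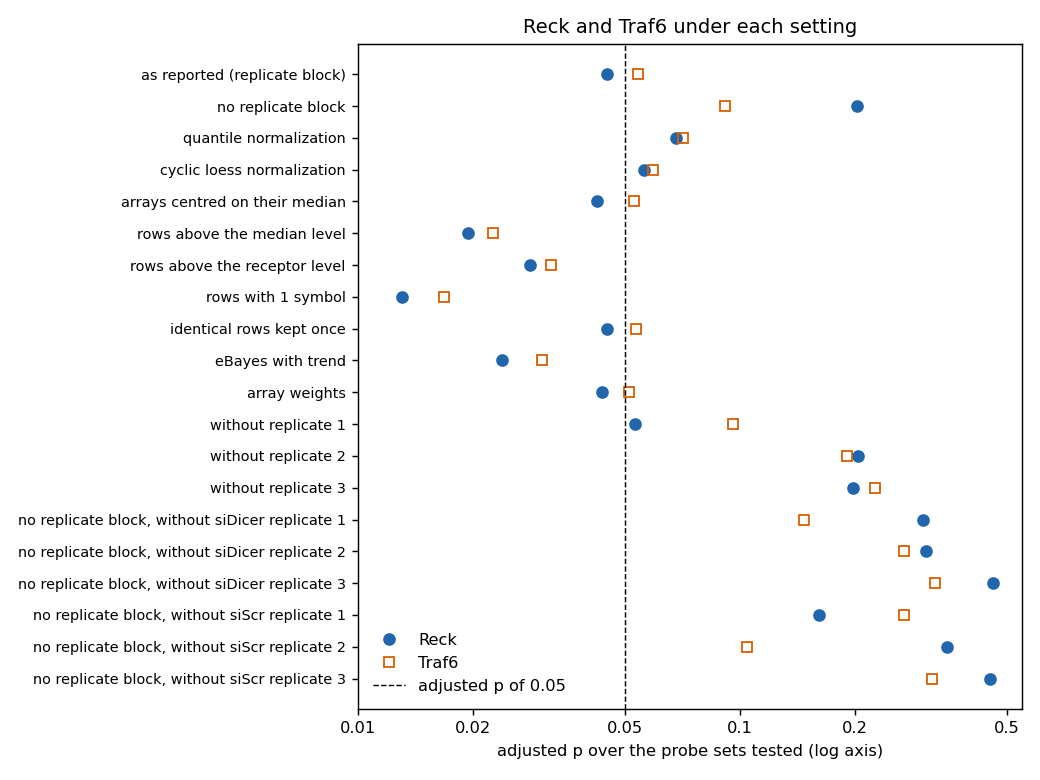
Adjusted p of Reck (filled circles) and Traf6 (open squares) in limma under each of 20 settings, on a log axis, with the 0.05 threshold dashed. Reck was under the threshold in 8 settings and Traf6 in 4, and neither passed in any fit that left out an array or pair.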

How the data were processed

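RNA from 6 cultures was hybridised to mouse Clariom D arrays. The table the authors deposited gives a log2 signal for each probe set on each array. The submitters' processing notes name Affymetrix Expression Console; its version, background correction and normalization were not given in the sources used here. Scaling between arrays hides a shift shared by most transcripts, and background compresses log2 differences of dim probe sets. Of 16383 probe sets, 7530 had 1 symbol in the platform annotation, 455 several and 8398 none; 230 symbols were updated through RefSeq gene numbers. Named genes lay almost entirely on chromosomes 1 to 4 (7397 of 7486), which limits every list.

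The siDicer arrays were set against the siScr arrays in limma 3.58.1 (R 4.3.3; lmFit, eBayes) with replicate number as a block, and p-values were adjusted by Benjamini-Hochberg over all probe sets. The labels give same-numbered arrays the same passage, and their deviations from group means correlated with r of 0.436, 0.406 and 0.240. The fit without the block is given where it changes a call. The submitters call the arrays biological replicates of 1 line; whether each came from a separate culture beyond the passage is not stated, so p-values measure the spread between these samples. The procedure was run on simulated data with independent noise and changes of known size, where only the median estimated size was checked. That run does not test the p-values given here.

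The genes and lists were chosen with earlier results of these data known. Named were all 8 genes, the gene with the smallest p in each list, Itgav and Rab22a, and the 2 most similar genes per member over the 6 arrays. Mmp9, Map3k7, Hipk1, Nr1h3, Rxra, Ptbp3, Notch2, Mir30e, Tyrp1, Pax3, Mlph and Ptprc were named after their values were seen. Alternatives were other normalizations, filters on level and annotation, a variance trend, array weights and leaving out arrays. The number of arrays limits the precision.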

Additional observations from a re-analysis of the deposited data

How the results depend on the processing

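With the replicate block 163 probe sets and 1 of the 8 genes passed in limma. Without the block these were 35 and 0, after quantile normalization 84 and 0 and after cyclic loess 93 and 0. With rows limited by level or symbol they were 388 and 2 (above the median level), 290 and 2 (above the receptor level) and 281 and 2 (1 symbol), and with a variance trend 302 and 2. Where 2 passed, they were Reck and Traf6, the latter at a difference of 0.37 each time with adjusted p of 0.0225, 0.0319, 0.0168 and 0.0302. Without replicate 1, 157 probe sets passed, and without replicate 2 or 3 none did (2171 and 1814 at an unadjusted p under 0.05), so the range was 0 to 157. Leaving out 1 array without the block gave 0 (siDicer replicate 1 or 3, siScr replicate 3; 1815, 1208 and 1399 at an unadjusted p under 0.05), 4, 7 and 20. None of the 8 passed in any fit that left out arrays (2 or 3 at an unadjusted p under 0.05). Reck kept its direction in all 20 settings, at 0.41 without the block (adjusted p = 0.202), 0.36 after quantile normalization (0.068), 0.39 after cyclic loess (0.0561), 0.37 to 0.44 without 1 pair, and 0.34, 0.46, 0.42, 0.51, 0.37 and 0.35 without the block and siDicer replicates 1 to 3 or siScr replicates 1 to 3 in turn. The causes were not tested, other than fewer samples or rows by construction.

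Traf6, Tet2, Abca1 and Ptbp2 kept their direction in every setting. The small differences of 3 genes reversed, none past the threshold. Foxo1 was at 0.035 without replicate 2 (-0.133 without replicate 3), and at 0.011 without the block and siDicer replicate 2. Dnmt3b was at 0.014 in the latter fit. Mbnl1 was at -0.022 after quantile normalization, -0.035 after cyclic loess, and from -0.042 without replicate 3 to 0.042 without replicate 1. Without the block it was at -0.043, -0.010, -0.025 and -0.025 when siDicer replicate 2 or 3 or siScr replicate 1 or 3 was left out. No gene of the 8 had another probe set with 1 symbol, so that alternative gave no value. Among genes named from lists, the block also decided the calls of Rxrg and Mreg (adjusted p of 0.209 and 0.0877 without it). In limma with the block, the call of Mreg ended after quantile (0.0682) or cyclic loess normalization (0.0511) too, while Rxrg passed in both (0.0413 and 0.0383).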
